A study of Mus musculus with 6 samples.

Results

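The genes described here encode 10 receptors and bridging proteins through which dying cells are recognised and engulfed. They were taken as a list of gene symbols, *Mertk*, *Axl*, *Tyro3*, *Gas6*, *Pros1*, *Mfge8*, *Itgav*, *Itgb5*, *Stab1* and *Lrp1*, and no measured value enters that rule, although earlier results of these data were known when the list was made. Each symbol was found in the files by its NCBI gene number, and these 10 genes are part of the 17441 genes listed in the data. RNA-seq of heart tissue below the ligature of male mice, 12 weeks old and on a C57BL/6 background, was compared between 3 groups of 2 libraries each. WT sham hearts came from wild-type mice after sham surgery, WT MI hearts from wild-type mice after myocardial infarction (MI), and *Card9* KO MI hearts from *Card9* knockout mice after MI, all taken 3 days after surgery. *Card9* encodes an adapter protein of innate immune signalling, the knockout is in the whole animal, and no sham-operated knockout heart was analysed here. The sources used here do not say that the 2 libraries of a group came from separate animals, so p-values measure the spread between these libraries, which may be technical.

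Cells that die by apoptosis expose phosphatidylserine on their surface. GAS6 and protein S, the product of *Pros1*, bind this lipid. GAS6 activates the receptor tyrosine kinases TYRO3, AXL and MERTK (the TAM receptors), and protein S activates TYRO3 and MERTK. MFG-E8 instead links the same lipid to αv integrins. Stabilin-1 binds phosphatidylserine directly and LRP1 recognises calreticulin on the dying cell. In the infarcted heart macrophages use this machinery to remove dead cardiomyocytes and spent neutrophils.

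The libraries listed between 14935 and 15852 genes, and their depth, estimated from how the smallest values are spaced, was between 3032842 and 4301656 fragments. Values are FPKM, fragments scaled by gene length and by the mapped fragments of the library, so levels can be compared between genes. *Card9* itself was no lower in hearts labelled *Card9* KO MI than in those of WT MI. Its FPKM was 0.99 and 1.03 in the sham hearts, 3.39 and 5.08 in WT MI hearts, and 9.85 and 6.94 in *Card9* KO MI hearts (log2 fold change 0.85, SE 0.23, adjusted p = 0.112 by limma against WT MI). Where on the gene the deletion lies is not given in the sources used here, so the transcript level does not settle the genotype. The group is therefore named by its label, and every direction between the genotypes rests on that label. Defining cardiomyocyte transcripts were abundant in all libraries, with a summed FPKM of 10 markers from 60702 to 62439 in the sham hearts, 34837 to 36501 in WT MI hearts and 28937 to 33631 in *Card9* KO MI hearts. The summed FPKM of 15 macrophage markers was 240 to 286, 1459 to 1816 and 2077 to 2908 in the same order. That of 10 fibroblast markers was 953 to 954, 1789 to 2299 and 3291 to 3401. Single fibroblast markers did not all follow this sum. Between the infarcted groups 6 of the 10 were higher in *Card9* KO MI without overlap (30.8% of all genes tested). Lower without overlap were 2 (*Gsn* and *Pdgfra*), against 21.9% of all genes tested. In the same order of groups, mean FPKM was 43.2, 437 and 901 for *Col1a1* and 20.7, 212 and 626 for *Postn*. It was 423, 261 and 176 for *Gsn*, 7.7, 15.5 and 10.5 for *Pdgfra*, and 322, 341 and 304 for *Dcn*. Fibroblast number was not tested.

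Infarction was accompanied by higher expression of most of these genes. In WT MI against WT sham, 9 of the 10 rose (limma on log2(FPKM + 1), adjusted p below 0.05 over all 13120 genes tested), where 27.7% of all genes tested rose. The largest differences were those of *Stab1*, 3.62-fold in mean FPKM, and *Lrp1*, 2.74-fold. The smallest were those of *Gas6*, 1.35-fold, and *Mfge8*, 1.33-fold. Only *Tyro3* did not pass the test. In each of the 10 genes both WT MI libraries lay above both WT sham libraries, as they did in 48.3% of all genes tested. The median log2 fold change of the 10 genes was 0.82, against 0.19 over all genes tested. Scaling changed the balance over all genes, from 3637 higher and 1232 lower as deposited to 2832 and 1856 with upper-quartile scaling and 2198 and 2447 with quantile normalization. Under both, the calls of *Gas6* and *Mfge8* were lost, and under the latter that of *Mertk*, while all 10 log2 fold changes stayed above 0.

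**Figure D1:**
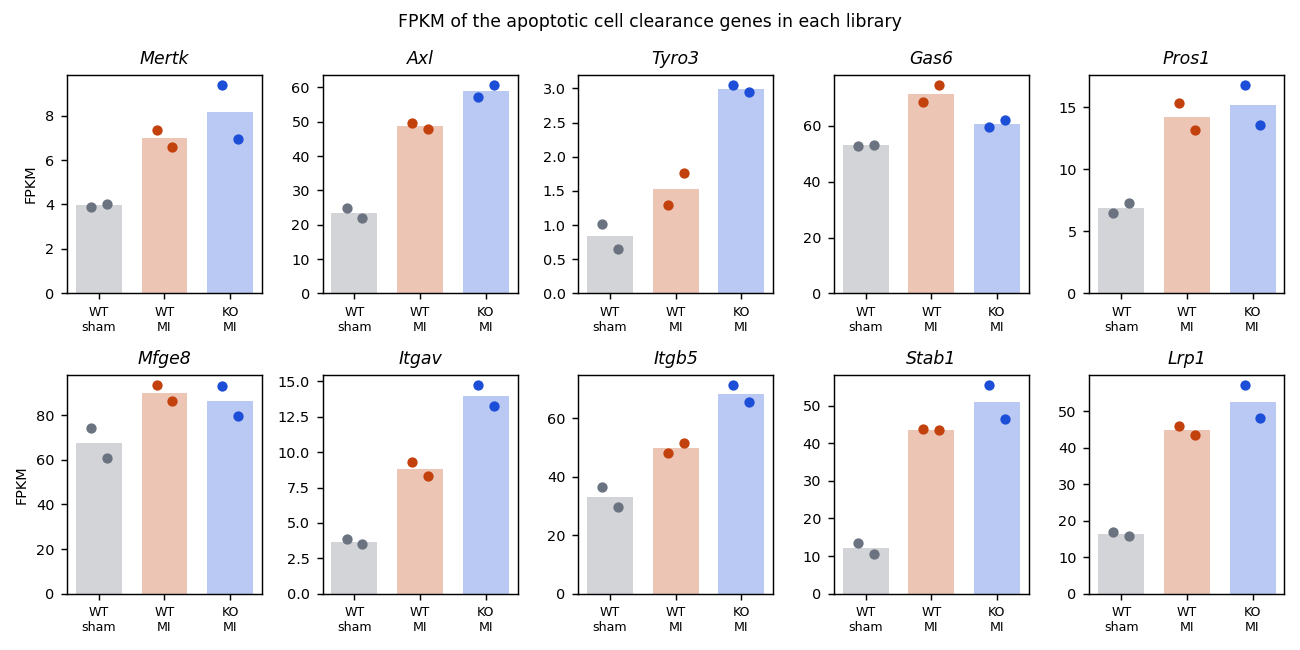
FPKM of each of the 10 genes (vertical axes) in the 6 libraries, grouped by genotype and surgery. Points are libraries and shaded bars are the group means. All WT MI points lie above the WT sham points, whereas *Mertk*, *Pros1* and *Mfge8* overlap between WT MI and *Card9* KO MI.

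Among the TAM receptors, *Axl* was the most abundant in every library. Its FPKM was 24.94 and 21.87 in the sham hearts, 49.58 and 47.84 in WT MI hearts, and 57.35 and 60.72 in *Card9* KO MI hearts. The 3 groups did not overlap, and *Axl* rose in WT MI against WT sham (log2 fold change 1.03, SE 0.10, adjusted p = 0.000327). *Mertk*, the receptor most associated with engulfment by macrophages, measured 3.87 and 4.04 in the sham hearts, 7.37 and 6.58 in WT MI hearts, and 9.38 and 6.94 in *Card9* KO MI hearts. Both infarcted groups lay above WT sham but overlapped each other, and *Mertk* rose in WT MI (log2 fold change 0.69, SE 0.17, adjusted p = 0.0179). Leaving out any single library of WT sham or WT MI took *Mertk* over the threshold (adjusted p from 0.0545 to 0.102). *Tyro3*, the TAM receptor best known from the nervous system, was the lowest of the 10, at 1.02 and 0.65 in the sham hearts, 1.29 and 1.76 in WT MI hearts, and 3.05 and 2.94 in *Card9* KO MI hearts. The groups followed this order without overlap, but the difference of WT MI from WT sham did not pass the test (log2 fold change 0.46, 95% interval -0.05 to 0.97, adjusted p = 0.137). Of the 10 genes it lies closest to the counting limit, since 3 fragments on a 2 kb transcript correspond to an FPKM of 0.349 to 0.495 in these libraries, an estimate that covers counting error only.

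*Gas6*, which encodes a vitamin K-dependent ligand of all 3 TAM receptors, was already high in sham hearts. It measured 52.95 and 53.20 in the sham hearts, 68.46 and 74.70 in WT MI hearts, and 59.60 and 61.99 in *Card9* KO MI hearts. Here the WT MI libraries were the highest and the *Card9* KO MI libraries lay between the other groups. *Gas6* rose in WT MI against WT sham (log2 fold change 0.42, SE 0.09, adjusted p = 0.00991), and this call was lost without WT MI replicate 2 (adjusted p = 0.0727). *Pros1*, which encodes protein S, an anticoagulant cofactor and a ligand of MERTK and TYRO3, was found at 6.44 and 7.31 in the sham hearts, 15.32 and 13.13 in WT MI hearts, and 16.79 and 13.60 in *Card9* KO MI hearts. The infarcted groups lay above WT sham and overlapped each other, and the rise in WT MI had a log2 fold change of 0.95 (SE 0.15, adjusted p = 0.00262). *Mfge8*, the bridge to αv integrins, had the highest FPKM of the 10 in all 6 libraries, with 73.99 and 60.57 in the sham hearts, 93.34 and 86.12 in WT MI hearts, and 92.98 and 79.77 in *Card9* KO MI hearts. The WT sham libraries were the lowest, and the spread within groups was wide beside the difference. The call for *Mfge8* in WT MI (log2 fold change 0.42, SE 0.13, adjusted p = 0.0365) was lost without WT sham replicate 2 (log2 fold change 0.27, adjusted p = 0.191), WT MI replicate 1 (adjusted p = 0.172) or WT MI replicate 2 (adjusted p = 0.0853).

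The integrin chains of the MFG-E8 receptor differed in level. *Itgav*, which encodes the αv chain, measured 3.85 and 3.51 in the sham hearts, 9.28 and 8.29 in WT MI hearts, and 14.73 and 13.25 in *Card9* KO MI hearts. The 3 groups were separate, and *Itgav* rose in WT MI (log2 fold change 1.06, SE 0.14, adjusted p = 0.00109). *Itgb5*, which encodes the β5 partner chain, measured 36.31 and 29.65 in the sham hearts, 48.24 and 51.67 in WT MI hearts, and 71.27 and 65.40 in *Card9* KO MI hearts, again without overlap. Its rise in WT MI (log2 fold change 0.59, SE 0.12, adjusted p = 0.00746) missed the threshold without WT MI replicate 2 (adjusted p = 0.0514).

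*Stab1*, the scavenger receptor stabilin-1 of tissue macrophages and sinusoidal endothelium, measured 13.46 and 10.67 in the sham hearts, 43.67 and 43.59 in WT MI hearts, and 55.40 and 46.51 in *Card9* KO MI hearts. It had the largest rise of the 10 in WT MI (log2 fold change 1.78, SE 0.14, adjusted p = 0.000117). *Lrp1*, a large endocytic receptor found on macrophages, fibroblasts and smooth muscle cells, measured 16.98 and 15.67 in the sham hearts, 46.00 and 43.59 in WT MI hearts, and 57.10 and 48.04 in *Card9* KO MI hearts. Its rise had a log2 fold change of 1.40 (SE 0.12, adjusted p = 0.000149). In both genes all infarcted libraries lay well above WT sham, and the lower of the 2 *Card9* KO MI libraries lay above WT MI by less than the 2 differed from each other.

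The order of levels shifted between groups. In WT sham it ran from *Mfge8* over *Gas6*, *Itgb5*, *Axl*, *Lrp1*, *Stab1*, *Pros1*, *Mertk* and *Itgav* to *Tyro3*, and no neighbours overlapped between libraries. In WT MI *Itgav* stood above *Mertk*, and the neighbours *Itgb5* and *Axl*, and *Lrp1* and *Stab1*, overlapped. In *Card9* KO MI *Itgb5* stood above *Gas6*, and *Gas6* with *Axl*, *Lrp1* with *Stab1*, and *Pros1* with *Itgav* overlapped.

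The 4 promoters shown next are those of the receptor and ligand with the highest TAM-system levels (*Axl*, *Gas6*), of the integrin chain with the smallest adjusted p between the infarcted groups (*Itgav*), and of the gene with the largest rise (*Stab1*). Each line holds the 250 bases before the transcription start, 5′ to 3′ on the gene's strand, from RefSeq sequence of GRCm38.p6. Capitals mark matches on either strand to a GC box (GGGCGG), a PU.1 core (GAGGAA) or a TEAD core (GGAATG), and none of these matches overlaps another.
Axl: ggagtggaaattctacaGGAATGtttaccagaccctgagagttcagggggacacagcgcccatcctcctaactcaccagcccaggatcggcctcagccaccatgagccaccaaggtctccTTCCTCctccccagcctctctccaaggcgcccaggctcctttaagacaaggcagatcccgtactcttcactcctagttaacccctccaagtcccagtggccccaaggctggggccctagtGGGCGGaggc
Gas6: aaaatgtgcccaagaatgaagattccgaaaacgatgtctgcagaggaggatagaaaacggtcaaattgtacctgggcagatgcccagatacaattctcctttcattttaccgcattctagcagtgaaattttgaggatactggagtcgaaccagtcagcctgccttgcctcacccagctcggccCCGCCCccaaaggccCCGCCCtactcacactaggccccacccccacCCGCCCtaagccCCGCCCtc
Itgav: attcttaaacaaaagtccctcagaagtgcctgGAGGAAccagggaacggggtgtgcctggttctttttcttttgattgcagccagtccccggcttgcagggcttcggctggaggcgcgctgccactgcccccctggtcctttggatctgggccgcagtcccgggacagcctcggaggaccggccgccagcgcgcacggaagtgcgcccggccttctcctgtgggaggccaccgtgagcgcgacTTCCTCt
Stab1: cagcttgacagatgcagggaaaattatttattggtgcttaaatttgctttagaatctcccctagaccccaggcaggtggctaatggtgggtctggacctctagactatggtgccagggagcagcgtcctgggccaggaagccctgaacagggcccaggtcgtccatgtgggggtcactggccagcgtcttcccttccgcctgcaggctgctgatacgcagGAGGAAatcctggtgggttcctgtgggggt
The same letters occur once on the gene's chromosome in mm9, at chr7:26573753-26574002 (minus strand) for *Axl*, chr8:13494536-13494785 (minus strand) for *Gas6*, chr2:83564304-83564553 (plus strand) for *Itgav* and chr14:31981828-31982077 (minus strand) for *Stab1*. *Gas6* held 4 GC boxes, *Axl* held a single GC box, a single PU.1 core and a single TEAD core, *Itgav* held 2 PU.1 cores, of which the nearer began 7 bases before the start, and *Stab1* held a single PU.1 core 30 bases before the start. Over all 10 genes a GC box was present in 8, against 58.7% of the 10336 promoters of tested genes, and a PU.1 core in 4, against 22.9%. A TEAD core was present in 1, against 10.6%, and neither AP-1 (TGANTCA, 4.45%) nor an NF-κB consensus (5.77%) was present in any of these windows. Matches describe letters and say nothing about binding.

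In mm9 the 10 genes lie at separate loci on 6 chromosomes. *Mertk* (chr2:128524692-128628630), *Tyro3* (chr2:119623469-119643840) and *Itgav* (chr2:83564554-83647073) share chromosome 2 and are read from the plus strand. *Axl* (chr7:26542292-26573724) and *Mfge8* (chr7:86278655-86293946) are on chromosome 7, and *Pros1* (chr16:62854133-62929172) and *Itgb5* (chr16:33829751-33949239) on chromosome 16. *Gas6* (chr8:13465374-13494535), *Stab1* (chr14:31952199-31981827) and *Lrp1* (chr10:126975217-127058204) are alone on theirs. Other annotated genes overlap 4 of them: *Gm14011* and *SNORA25* at *Mertk*, *Dnmt3l-ps1* and *Gm13684* at *Itgav*, *Nt5dc2* at *Stab1* and *Gm16217* at *Lrp1*. Whether counting used strand is not stated, so reads from the overlapping parts cannot be told apart.

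Between the genotypes after MI, none of the 10 genes passed the test. Limma called 0 of 10 in *Card9* KO MI against WT MI, where 0.816% of all genes tested were called higher and 0.587% lower. At an unadjusted p below 0.05, *Axl*, *Tyro3*, *Itgav* and *Itgb5* were higher and *Gas6* was lower, against 11.5% higher and 8.57% lower of all genes tested. A screen by fold change and by probability, without a p-value, selected 0 of the 10. It required a fold change of at least 2, and the largest ratio of mean FPKM among the 10 was 1.96 (*Tyro3*). The fold requirement alone thus set this count, and the probability did not enter it. Both *Card9* KO MI libraries lay above both WT MI libraries in 6 genes (30.8% of all genes tested) and below them in *Gas6* (21.9%), and the median log2 fold change was 0.22, against 0.04 over all genes tested.

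*Itgav* came closest to the threshold, with a log2 fold change of 0.62 (SE 0.14, 95% interval 0.28 to 0.95) and adjusted p = 0.0844 by limma, ranging from 0.0613 to 0.342 over the other settings. *Itgb5* had a log2 fold change of 0.44 (SE 0.12, adjusted p = 0.112), *Tyro3* of 0.67 (SE 0.22, adjusted p = 0.151) and *Axl* of 0.27 (SE 0.10, adjusted p = 0.205). *Gas6* differed in the other direction, with a log2 fold change of -0.23 (SE 0.09, adjusted p = 0.221). These intervals lay on one side of 0 before adjustment, and none held after it. *Stab1* (0.21, adjusted p = 0.441) and *Lrp1* (0.22, adjusted p = 0.342) had higher libraries without overlap, and smaller log2 fold changes than the integrin chains. For *Mertk* the log2 fold change was 0.19 (95% interval -0.22 to 0.59, adjusted p = 0.598) and for *Pros1* 0.09 (adjusted p = 0.807). For *Mfge8* it was -0.06 (95% interval -0.35 to 0.24, adjusted p = 0.848), so these data leave room for a change in either direction. *Card9* KO MI replicate 1 was above replicate 2 in 8 of the 10 genes and in summed macrophage markers (2908 against 2077), and without it the log2 fold change of *Mertk* was -0.00457.

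**Figure D2:**
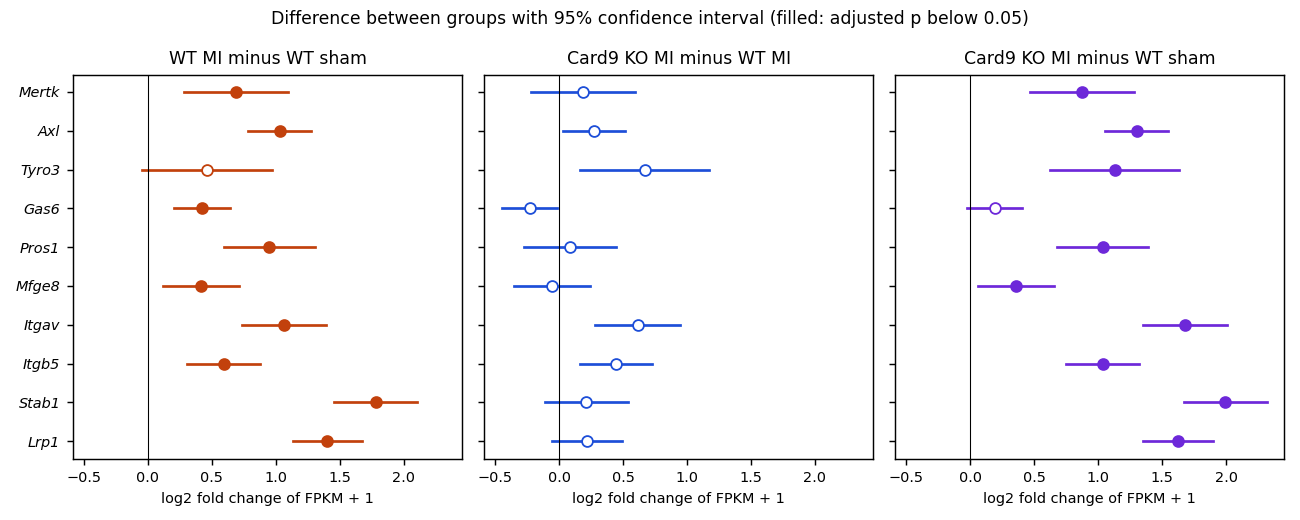
Log2 fold change of each gene (horizontal axis) with its 95% interval, for WT MI against WT sham, *Card9* KO MI against WT MI and *Card9* KO MI against WT sham, from limma on log2(FPKM + 1). The intervals of 9 genes exclude 0 in each comparison with WT sham, and those of 5 genes do so before adjustment between the genotypes, where none passed the adjusted test.

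Set against WT sham, *Card9* KO MI hearts differ in both genotype and infarction, which cannot be told apart here, and this comparison shares its libraries with the other two. In it 9 of the 10 genes rose, against 34.8% of all genes tested, and all 10 lay above WT sham without overlap, against 51.6%. The median log2 fold change was 1.08, against 0.24 over all genes tested, of which 4569 rose and 1875 fell as deposited, and 2755 and 3444 after quantile normalization. The log2 fold change was 1.99 for *Stab1* (adjusted p = 3.74e-05), 1.68 for *Itgav* (adjusted p = 8.67e-05) and 1.62 for *Lrp1* (adjusted p = 4.41e-05). *Tyro3*, at 1.13 (adjusted p = 0.00392), passed here, and *Gas6*, at 0.19 (SE 0.09, adjusted p = 0.123), did not. *Mfge8* passed narrowly (0.36, adjusted p = 0.0489) and lost its call without WT sham replicate 2 (0.22, adjusted p = 0.256), either WT MI replicate (adjusted p = 0.0728 and 0.0719) or *Card9* KO MI replicate 1 (adjusted p = 0.225). It was called in 6 of the 17 other settings run, and its log2 fold change was 0.19 under each of the 3 scalings tried (adjusted p from 0.229 to 0.243).

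Ratios within a library do not move with its scaling, and they describe how receptors and bridges shifted against each other. *Gas6* over *Axl*, a ratio of FPKM, was 2.12 and 2.43 in the sham hearts, 1.38 and 1.56 in WT MI hearts, and 1.04 and 1.02 in *Card9* KO MI hearts. The groups did not overlap, and the ligand that exceeded its receptor in sham hearts was at about the same FPKM in *Card9* KO MI. Summed *Gas6* and *Pros1* over the summed TAM receptors gave 1.99 and 2.28, 1.44 and 1.56, and 1.09 and 1.07 in the same order of groups. *Mfge8* over *Itgav* was 19.2 and 17.3, 10.1 and 10.4, and 6.31 and 6.02, again without overlap. *Gas6* over *Pros1* was 8.22 and 7.28 in the sham hearts, 4.47 and 5.69 in WT MI hearts, and 3.55 and 4.56 in *Card9* KO MI hearts, with the infarcted groups overlapping. *Axl* made up 82.3% and 83.6% of TAM receptor FPKM in the sham hearts, 85.1% and 85.2% in WT MI hearts, and 82.2% and 86.0% in *Card9* KO MI hearts, so the groups overlapped in this share. With 2 libraries against 2 an exact permutation test cannot give a two-sided p below 0.333, and no test was run on the ratios.

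**Figure D3:**
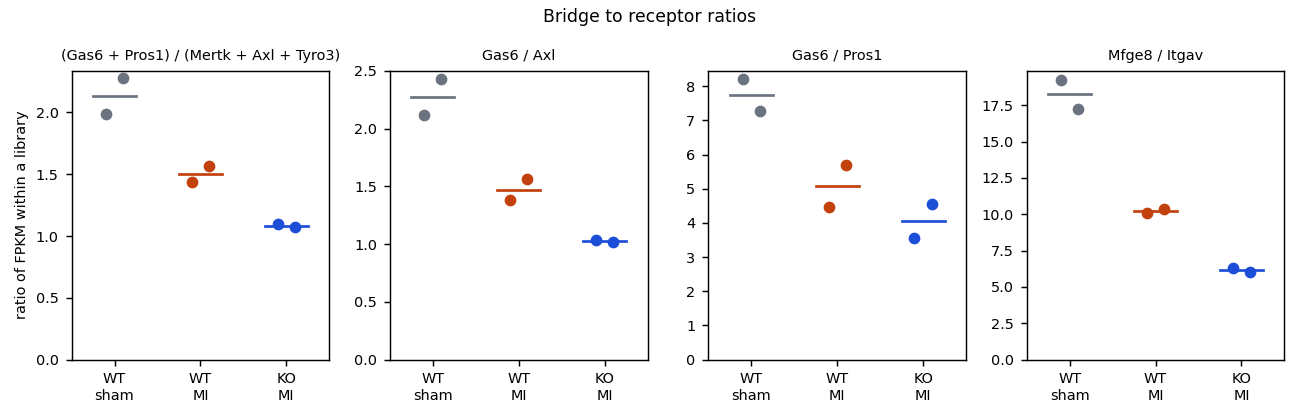
Ratios of FPKM within each library (vertical axes) for ligands against receptors, with points for the 6 libraries in the order of WT sham, then WT MI, then *Card9* KO MI. *Gas6* over *Axl* falls in separate groups, from 2.12 and 2.43 in WT sham to 1.04 and 1.02 in *Card9* KO MI.

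Most macrophage markers were also higher after infarction. Of 15 macrophage markers, 14 rose in WT MI against WT sham, where 27.7% of all genes tested rose. Their median log2 fold change was 2.75, which is above that of any of the 10 genes. In *Card9* KO MI against WT MI, 0 of the 15 passed the limma test (8 were higher and 1 lower at an unadjusted p below 0.05) and their median was 0.59. Without overlap, 10 lay above WT MI (30.8% of all genes tested) and 1 below (21.9%). The latter was *Cd163*, a scavenger receptor of resident macrophages, with FPKM of 10.34 and 5.59 in WT MI against 3.37 and 3.10 in *Card9* KO MI hearts (log2 fold change -1.03, adjusted p = 0.0939), named after its values were seen. The mean log2(FPKM + 1) of the macrophage markers exceeded WT sham by 2.44 in WT MI, and that of WT MI by 0.51 in *Card9* KO MI. Measured against that mean within each library, *Mertk* stood at -0.95 and -0.67 in the sham hearts, -2.42 and -2.72 in WT MI hearts and -2.90 and -2.88 in *Card9* KO MI hearts. Thus *Mertk* increased less than the macrophage markers on the log2 scale. This was not particular to *Mertk*, since all 10 genes stood lower against that mean in both *Card9* KO MI libraries than in both WT sham libraries. *Gas6* went from 2.52 and 2.76 in WT sham to -0.36 and 0.11 in *Card9* KO MI. The shift of *Stab1* was smaller than that of *Mertk*, from 0.62 and 0.55 to -0.46 and -0.30. In bulk tissue, fewer cells of a type and less RNA per cell cannot be told apart, and the part of cell numbers in these changes was not tested.

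**Figure D4:**
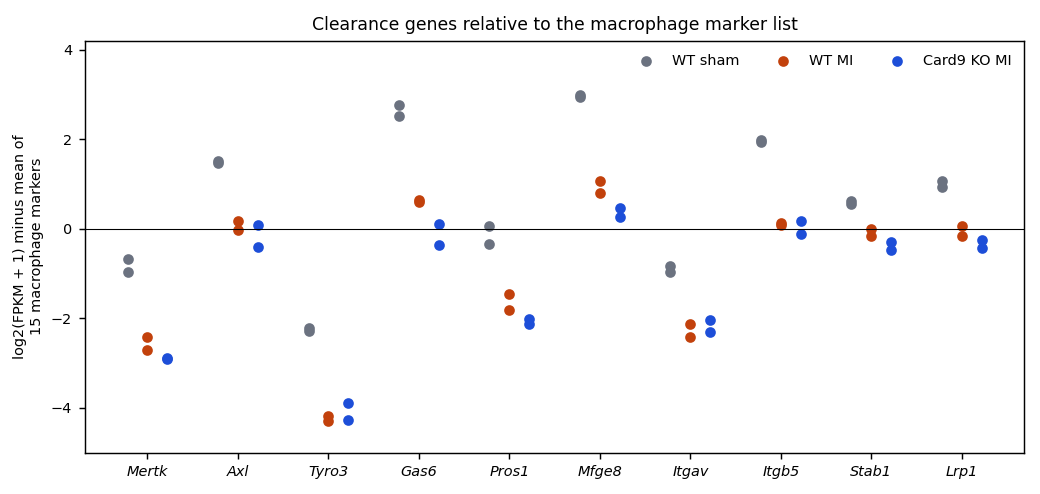
Log2(FPKM + 1) of each gene minus the mean log2(FPKM + 1) of 15 macrophage markers in the same library (vertical axis), for the 6 libraries. All 10 genes lie lower in *Card9* KO MI than in WT sham, with *Mertk* at -0.95 and -0.67 in WT sham and at -2.90 and -2.88 in *Card9* KO MI.

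Markers of other cell types differed in direction. The fibroblast markers included 7 of 10 that rose (27.7% of all genes tested) and 1 that fell (9.39%) in WT MI. In *Card9* KO MI against WT MI, 3 rose (0.816%) and 1 fell (0.587%). Of 5 smooth muscle markers, 3 (*Acta2*, *Tagln* and *Cnn1*) rose in WT MI. Of these, 2 (*Acta2* and *Tagln*) rose further in *Card9* KO MI against WT MI. *Myh11* (log2 fold change -0.02) and *Smtn* (-0.23) did not rise in WT MI. The summed FPKM of the 5 was 126 to 152 in the sham hearts, 215 to 226 in WT MI hearts and 438 to 465 in *Card9* KO MI hearts. Summed neutrophil markers (7 of the 10 listed in the data) ran from 5.4 to 7.64 in the sham hearts, 93.1 to 212 in WT MI hearts and 46.7 to 59.8 in *Card9* KO MI hearts. Between the infarcted groups, 6 of the 6 tested neutrophil markers were lower in *Card9* KO MI without overlap (21.9% of all genes tested). Of these, 0 passed the limma test (2 at an unadjusted p below 0.05). Summed endothelial markers were 399 to 410 in the sham hearts, 431 to 437 in WT MI hearts and 483 to 487 in *Card9* KO MI hearts. Of 9 endothelial markers, 2 rose (27.7% of all genes tested) and 1 fell (9.39%) in WT MI. Against WT sham, 3 rose (34.8%) and 2 fell (14.3%) in *Card9* KO MI, so these counts were close to the shares over all genes. The part of these cell types in the values of *Lrp1*, *Axl*, *Itgav* and *Itgb5*, which fibroblasts and smooth muscle cells also express, was not tested.

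The other genes of the clearance pathway were taken from 6 lists of 69 genes in all, of which 64 passed the filter on low values. In WT MI against WT sham, 44 rose (27.7% of all genes tested), 2 fell (9.39%) and 18 did not pass the test. Their median log2 fold change was 0.69. In *Card9* KO MI against WT sham, 49 rose (34.8% of all genes tested) and 2 fell (14.3%). Between the genotypes 2 rose (0.816% of all genes tested), 0 fell (0.587%) and 62 did not pass, with a median of 0.22. In WT MI the other bridging and eat-me molecules had 9 of 11 tested genes that rose, and engulfment signalling 11 of 13. Find-me and do-not-eat-me signals had 8 of 10, and receptor shedding and TAM feedback 4 of 7. Other engulfment receptors had 6 of 11 that rose and 1 that fell, and the lipid response after engulfment 6 of 12 and 1.

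**Figure D5:**
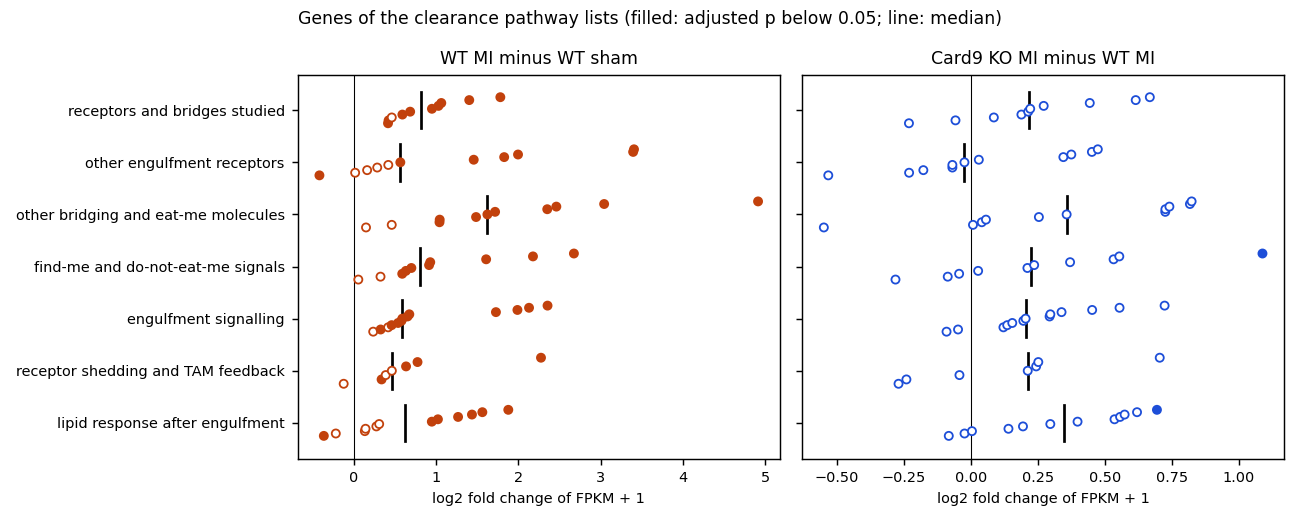
Log2 fold change of each tested gene (horizontal axis) in the 6 pathway lists and the 10 genes, for WT MI against WT sham and for *Card9* KO MI against WT MI, with a line at each median and filled points for adjusted p below 0.05. Between the genotypes the values centre on 0.22 in the pathway lists, against 0.04 for all genes tested.

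Among these genes the bridging lectin *Lgals3* had the largest difference from WT sham, with FPKM of 3.24 and 2.17 in the sham hearts, 91.58 and 130.49 in WT MI hearts, and 225.58 and 165.93 in *Card9* KO MI hearts (log2 fold change 4.91 in WT MI, adjusted p = 1.73e-05). The scavenger receptor *Msr1* rose from 1.30 and 0.91 to 19.35 and 23.20 in WT MI (log2 fold change 3.40, adjusted p = 2.51e-05). *Thbs1*, a thrombospondin that binds αv integrins and CD36, rose as well (log2 fold change 3.04, adjusted p = 2.35e-05). The haematopoietic GTPase *Rac2* (2.35, adjusted p = 0.000105) and *Socs3*, an inhibitor of cytokine receptors induced by TAM signalling (2.27, adjusted p = 0.000213), moved in the same direction. *Adam17*, the protease that sheds the MERTK ectodomain, rose by a log2 fold change of 0.64 (adjusted p = 0.00442). *Cd36*, a fatty acid transporter of cardiomyocytes and endothelium as well as an engulfment receptor, measured 503.97 and 536.71 in the sham hearts, 403.88 and 375.11 in WT MI hearts, and 246.04 and 293.78 in *Card9* KO MI hearts. It fell in WT MI (log2 fold change -0.42, adjusted p = 0.0195), as did the nuclear receptor *Rxra* (-0.36, adjusted p = 0.0457). The receptor *Adgrb1* was missing from both WT sham libraries and from WT MI replicate 1, and was at most 0.08 in the others, and *Havcr1* was in none of the libraries.

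Between the genotypes the pathway genes called were *Cx3cr1*, the fractalkine receptor of monocytes and resident macrophages, and *Npc2*, which moves cholesterol out of lysosomes. *Cx3cr1* measured 3.86 and 4.07 in the sham hearts, 6.08 and 8.18 in WT MI hearts, and 16.33 and 15.96 in *Card9* KO MI hearts (log2 fold change 1.09 against WT MI, adjusted p = 0.0337 by limma). *Npc2* measured 18.49 and 17.39, 36.41 and 38.52, and 65.46 and 57.27 (log2 fold change 0.69, adjusted p = 0.0365). Both groups of libraries were separate in each gene, and both calls were lost without WT MI replicate 1, WT MI replicate 2 or *Card9* KO MI replicate 1, when 0 pathway genes passed. The complement genes *C1qa*, *C1qb* and *C1qc*, opsonins made by macrophages, had log2 fold changes of 0.74, 0.82 and 0.73 and did not pass (adjusted p = 0.0946, 0.0531 and 0.0614). *Cd36* came as close in the other direction and did not pass either (log2 fold change -0.53, adjusted p = 0.0614 by limma).

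Across the 6 libraries the tested genes with patterns nearest to each of the 10 were sought by the root-mean-square difference of centred log2(FPKM + 1), given as a description. The nearest to *Mertk* was *Sfxn3* (0.031), to *Axl* *1700017B05Rik* (0.040), to *Tyro3* *Galnt10* (0.055), to *Gas6* *Adrm1* (0.016) and to *Pros1* *Mfsd10* (0.039). The nearest to *Mfge8* was *F420014N23Rik* (0.033), to *Itgb5* *Mex3a* (0.031), to *Stab1* *Slc25a24* (0.048) and to *Lrp1* *Zyx* (0.033). For *Itgav* it was *Slc29a3* (0.053), followed by *Cmtm3* (0.059) and *Npc2* (0.074). *Mex3a*, with FPKM from 0.23 to 2.04, and *F420014N23Rik*, from 0.55 to 1.35, were low genes. At such levels log2(FPKM + 1) shrinks differences, so their nearness does not mean equal fold changes of FPKM.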

How the data were processed

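RNA was extracted from heart tissue below the ligature, mRNA was enriched and sequenced on an Illumina HiSeq, and the reads were mapped with BWA and Bowtie2 to mm9, per the submitters' processing notes, which give no versions. The authors deposited an FPKM value for every NCBI gene number above 0 in a library, rounded to 2 decimals. The annotation and the use of strand are not given in the sources used here. FPKM is relative to all mapped fragments of a library, so abundant genes that change shift all others.

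Genes missing from a library were set to 0. The 3 groups entered a single fit with limma 3.58.1 in R 4.3.3 (lmFit, contrasts.fit, eBayes with trend) on log2(FPKM + 1) for the 13120 genes that reached an FPKM of 1 in 2 or more libraries, with Benjamini-Hochberg adjustment over all of them. Fold changes on this scale understate those of low genes. Calls have an adjusted p below 0.05. Estimated depths made only 73.1% to 77.4% of low values whole (within 0.15 of a fragment), so counts were not rebuilt. The fit was tested on simulated data with 200 changed genes in *Card9* KO MI against WT MI. It recovered 135 of 150 changes of 2-fold or more but 6 of 50 under 2-fold, and called 7 unchanged genes. Changes under 2-fold between the genotypes can thus be missed. Ratios and figures were made with Python (3.11.15), using pandas (2.3.3), numpy (2.4.6) and matplotlib (3.10.9).

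The pathway and marker lists, like the 10 genes, were chosen with earlier results of these data known. Named genes are the 10 genes, *Card9*, and from each pathway list the called genes with the largest differences (at most 3 in each direction of each comparison), genes missing from all libraries of a group, and the 3 nearest patterns of each of the 10. *C1qa*, *C1qb*, *C1qc* and *Cd36* between the genotypes fall outside this rule and were chosen after their values were seen. Groups have 2 libraries, so no outlier test was possible. Replicate numbers do not pair libraries: the differences of replicate 1 from replicate 2 correlated at 0.002, -0.008 and 0.020 between groups. Promoters came from a RefSeq table of GRCm38.p6 and were placed in mm9 by exact match. The NF-κB motif was first searched in a narrower form and changed to the full consensus after those results were seen, and neither form occurred in the 10 promoters.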

Additional observations from a re-analysis of the deposited data

How the results depend on the processing

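The settings other than leaving out a single library included a fit of only the 2 groups compared. Under them, 311 values for the 10 genes kept direction and side of the threshold, 16 fell below it and 0 reversed. When a single library was left out, 5 values reversed. Scaling moved the median of all genes in WT MI against WT sham from 0.19 to 0.05 (upper quartile), 0.06 (without the 100 most abundant genes) and -0.09 (quantile). *Gas6* and *Mfge8* lost their WT MI calls under each of these (log2 fold changes 0.27 and 0.26, 0.28 and 0.27, 0.23 and 0.23), and *Mertk* under quantile scaling (0.36). Of the 10 genes, 9 were called in WT MI against WT sham, 4 when a fold change of at least 2 was also required, 3 by the screen of fold and probability, and 5 to 9 without single libraries, the 5 without WT MI replicate 2. In *Card9* KO MI against WT sham the 9 became 5 by the screen. Between the genotypes the count was 0 under every setting run. A fold change of at least 2 left 27 of 46 pathway genes in WT MI and, for the knockout label, 32 of 51 against WT sham, and the screen left 24 and 28. Between the genotypes the 2 pathway genes became 1 with a pseudocount of 0.1, 0 without the filter on low values, 5 with a mean FPKM of at least 5, 0 without the trend, 0 with a replicate block, 1 with a fold change of at least 2, 1 by the screen, and 0 to 2 without single libraries. The block left 9, 0 and 9 of the 10 genes called, and since the numbers do not pair the libraries a lost call is no sign of a weaker effect. Between the genotypes 5 values changed sign without a single library. *Mfge8* ran from -0.17 (without *Card9* KO MI replicate 1) to 8.27e-05 (WT MI replicate 1) and 0.052 (*Card9* KO MI replicate 2), *Pros1* from -0.057 (*Card9* KO MI replicate 1) and -0.018 (WT MI replicate 2) to 0.23, and *Mertk* from -0.00457 (*Card9* KO MI replicate 1) to 0.38 (*Card9* KO MI replicate 2). The 184 calls among all genes there ran from 9 to 147 without single libraries, and were 80 and 312 with pseudocounts of 0.1 and 5, 12 without the filter, 284 at a mean FPKM of at least 5, 58 without the trend and 71 with the block. Those against WT sham, 4869 for WT MI and 6444 for *Card9* KO MI, were 1707 and 2544 with a fold change of at least 2, and 1177 and 1787 by the screen. *Tyro3* had no value under the mean filter. The causes were not tested, and 2 libraries a group limit what can be detected.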
